A study of Mus musculus with 6 samples.

Results

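The immunoglobulin constant region genes and the joining chain gene were described in colonic tumors of mice with a wildtype or a dimerization-deficient glucocorticoid receptor. The members were chosen by gene name: the heavy chain genes Igha, Ighm, Ighg1, Ighg2b, Ighg2c and Ighg3, the light chain genes Igkc, Iglc1 and Iglc2, and Jchain. All 10 were found among the 24797 genes of the table, and all 10 passed the filter on low counts. Polyadenylated RNA came from bulk tumor tissue of 6 samples, 3 labelled GRwt (wildtype receptor) and 3 labelled GRdim (receptor deficient in dimerization). Mice of both genotypes had been given AOM/DSS, the colon carcinogen azoxymethane with dextran sulfate sodium, which injures the colonic lining. The labels used here give no strain, age, sex or time after treatment, and do not say whether each tumor sample had its own donor mouse. All p-values therefore rest on the spread among these 6 libraries, which may be in part technical. Where 3 values are given for a genotype, they stand in the order of replicates 1, 2 and 3.

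An antibody is built from paired heavy and light chains, and the constant region of its heavy chain sets its class. In the gut wall, plasma cells mainly make IgA, whose heavy chain is encoded by Igha, and the joining chain links IgA units into dimers and IgM units into pentamers. The polymeric immunoglobulin receptor of epithelial cells then carries these polymers into the lumen. IgM and IgD are the classes on naive B cells, IgG subclasses are made after class switching, and mouse antibodies mostly carry kappa light chains, with lambda chains in a minority. In bulk tissue, fewer cells of a type and less RNA per cell cannot be told apart.

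With all 6 libraries in edgeR, the lambda constant genes had the largest log2 fold changes among the members, although Ighm exceeded them in 4 alternatives (limma-voom, the T of some library names as a covariate, GRwt replicate 3 left out, and the 4 libraries without the T). The start of each lambda constant region is therefore shown, to make clear how far reads could tell them apart. The stretches are 100 bases long, read from GENCODE M21 transcripts on GRCm38, minus strand, at chr16:19061970-19062069 for Iglc1, chr16:19198751-19198850 for Iglc2 and chr16:19065580-19065679 for Iglc3, which is not a member. Capitals mark the 25 positions at which the genes are not all alike.
Iglc1: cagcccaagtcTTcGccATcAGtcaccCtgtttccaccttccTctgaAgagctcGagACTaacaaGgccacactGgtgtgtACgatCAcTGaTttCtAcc
Iglc2: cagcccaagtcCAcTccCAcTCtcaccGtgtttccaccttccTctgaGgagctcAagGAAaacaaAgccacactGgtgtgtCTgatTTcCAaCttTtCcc
Iglc3: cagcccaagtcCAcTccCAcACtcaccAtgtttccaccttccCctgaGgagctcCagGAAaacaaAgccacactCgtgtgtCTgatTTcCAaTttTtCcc

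In these stretches Iglc1 differed from Iglc2 at 23 positions, whereas Iglc3 differed from Iglc2 at 6. Over whole transcripts Iglc1 and Iglc2 were 70.2% identical and shared 0% of their 50-base windows. Iglc2 and Iglc3 were 95.4% identical, and 10.5% of the 50-base windows and 1.30% of the 75-base windows of Iglc2 also occurred in Iglc3. The read length and the handling of reads with several matches are not given in the sources used here, so the division of reads between Iglc2 and Iglc3 is less certain than that between Iglc1 and either of them. Among the IgG genes, Ighg2b and Ighg2c were the most alike, at 86.4% identity, with 5.26% of the 50-base windows of Ighg2b found in Ighg2c.

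Library totals ran from 21132981 to 36222351 counts. Levels are given as CPM, counts scaled to the TMM-adjusted library total. The libraries of GRwt replicate 3 and GRdim replicate 1 were the only ones named with a T. They held 2.51% and 2.05% of their counts in the ribosomal sequence Rn18s-rs5, against 0.0466% to 0.0725% in the other 4 libraries. GRdim replicates 1 and 3 share a number in their library names. Ddx3y, encoded on the Y chromosome, reached 62.4 CPM of the plain total in GRdim replicate 2 and at most 0.710 CPM elsewhere. Xist, encoded on the X chromosome, stood at 0.267 CPM of the plain total in GRdim replicate 2 and at 540 to 1277 CPM elsewhere. The part of donor sex in the member levels was not tested. Epithelial markers were present in every library, with 8 of 8 detected and a summed level of 10442 to 15202 CPM in GRwt and 10154 to 12027 CPM in GRdim.

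The comparison of GRdim with GRwt asks whether the antibody transcripts of such tumors differ when receptor dimerization is impaired. The IgA heavy chain, kappa light chain and joining chain transcripts made up most member counts, and for each the genotypes overlapped. Their log2 fold changes were -0.01, -0.24 and 0.04, with standard errors of 0.29, 0.27 and 0.25. Both lambda chain members and 3 of the 4 IgG members had higher means in GRdim tumors, Ighg2c a lower one, and the IgM transcript varied more within each genotype than between them. With edgeR's quasi-likelihood test 0 of 10 members passed a Benjamini-Hochberg adjusted p of 0.05, as did 0 of the 18756 genes tested (0%), while 541 genes (2.88%) had an unadjusted p under 0.05. At that unadjusted level 4 members were higher in GRdim (Iglc1, Iglc2, Ighg2b and Ighg1) and 0 lower, where 1.79% of all genes were higher and 1.09% lower. The count of members at that level was 2 when GRwt replicate 1, GRwt replicate 2 or GRdim replicate 2 was left out. DESeq2 called 31 of 18369 genes (0.169%), Iglc1 among them. Log2 fold changes, GRdim relative to GRwt throughout, were above 0 for 7 of 10 members, where 50.6% of all genes tested were above 0, and below 0 for 3, with a median of 0.74 against 0.0040 over all genes tested.

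**Figure D1:**
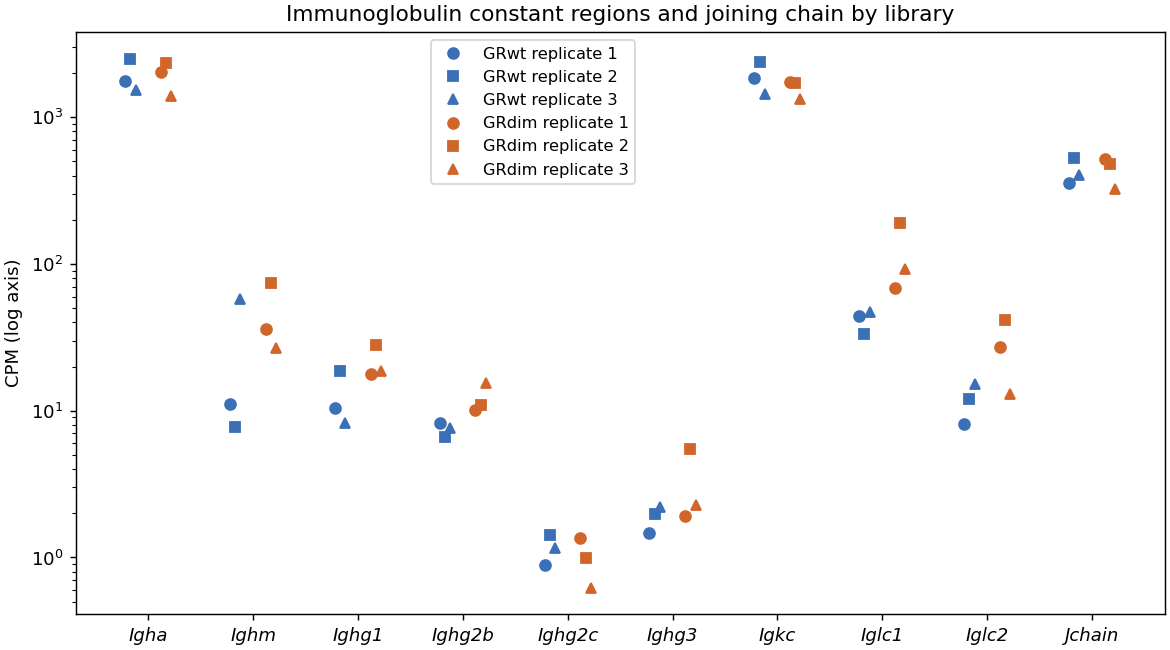
Level of each member in every library, in CPM on a log axis, with GRwt libraries in blue and GRdim libraries in orange and a marker shape for each replicate number. The GRdim points of Iglc1 (68.3 to 190.3 CPM) and Ighg2b (10.1 to 15.4 CPM) lie above all GRwt points, while the groups overlap for Igha, Igkc and Jchain.

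Igha, the constant region of the IgA heavy chain (chromosome 12, 113218450 to 113223856, minus strand, GRCm39), stood at 1757, 2503 and 1541 CPM in the GRwt tumors and at 2036, 2328 and 1394 CPM in the GRdim tumors. The groups overlapped, with the highest library in GRwt and the lowest in GRdim. The means were 1934 ± 505 CPM in GRwt and 1919 ± 477 CPM in GRdim (mean ± SD over 3 libraries, as in all such values by genotype). The fit gave a log2 fold change of -0.01 with a standard error of 0.29 (edgeR unadjusted p = 0.971). The adjusted p of every member was 0.9999 in edgeR and is not repeated below.

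Jchain, the gene of the joining chain (chromosome 5, 88667668 to 88675750, minus strand), stood at 355, 531 and 405 CPM in the GRwt tumors and at 521, 480.5 and 325 CPM in the GRdim tumors. GRwt replicate 2 was the highest and GRdim replicate 3 the lowest library, as for Igha. In the fit its log2 fold change was 0.04 with a standard error of 0.25. Set against its partners within each library, Jchain gave 20.1, 21.2 and 25.3 counts per 100 counts of Igha plus Ighm in the GRwt tumors and 25.1, 20.0 and 22.9 in the GRdim tumors. The log2 of this ratio averaged -2.18 ± 0.18 in GRwt and -2.15 ± 0.17 in GRdim, and an exact two-sided permutation test gave p = 1. The smallest p that 3 samples against 3 allow in this test is 0.1.

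Igkc, the only kappa constant gene (chromosome 6, 70703419 to 70703950, plus strand), stood at 1839, 2382 and 1429 CPM in the GRwt tumors and at 1741, 1719 and 1327 CPM in the GRdim tumors. GRwt replicates 1 and 2 lay above all GRdim libraries and GRwt replicate 3 among them. The group means were 1883 ± 478 and 1595 ± 233 CPM. Its log2 fold change was -0.24 with a standard error of 0.27 (edgeR unadjusted p = 0.392). Igha, Jchain and Igkc also varied little over all 6 libraries, with a highest level 1.795, 1.64 and 1.795 times the lowest.

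Both lambda constant members had higher means in GRdim tumors. Iglc1, the constant region of lambda 1 chains (chromosome 16, 18880368 to 18880821, minus strand), stood at 44.1, 33.5 and 47.2 CPM in the GRwt tumors and at 68.3, 190.3 and 92.3 CPM in the GRdim tumors. All 3 GRdim libraries lay above all GRwt libraries, with GRdim replicate 2 far above the other two. The means were 41.6 ± 7.20 and 117 ± 64.6 CPM, 2.81-fold higher in the fit. The log2 fold change was 1.49 with a standard error of 0.36 (edgeR unadjusted p = 0.00300). DESeq2 gave 1.48 with an adjusted p of 0.0473, and over all 15 alternatives the adjusted p ran from 0.0473 to 1. Without GRdim replicate 2 the log2 fold change was 0.95.

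Iglc2, the constant region of lambda 2 chains (chromosome 16, 19017146 to 19019101, minus strand), stood at 8.06, 12.0 and 15.2 CPM in the GRwt tumors and at 27.3, 41.7 and 12.96 CPM in the GRdim tumors. GRdim replicates 1 and 2 lay above all GRwt libraries and GRdim replicate 3 among them. For Iglc2 the log2 fold change was 1.22 with a standard error of 0.41 (edgeR unadjusted p = 0.0178), and 0.77 without GRdim replicate 2. Iglc3, the related constant gene shown above, stood at 11.0 ± 7.26 against 16.1 ± 6.45 CPM, with GRwt replicate 2 at 19.1 CPM within the GRdim range. Its log2 fold change was 0.55 with a standard error of 0.49.

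Within each library, Iglc1 and Iglc2 together held 2.76%, 1.88% and 4.19% of the light chain counts in the GRwt tumors and 5.21%, 11.9% and 7.35% in the GRdim tumors. The exact 95% interval of the highest GRwt share, 4.02% to 4.36%, did not meet that of the lowest GRdim share, 5.01% to 5.41%. These intervals cover counting error only. The mean share was 2.94 ± 1.17% in GRwt and 8.15 ± 3.41% in GRdim, a difference of 5.21 percentage points (3.34 without GRdim replicate 2), with higher values in 3 of 3 GRdim libraries than in any GRwt library. The exact two-sided permutation test gave p = 0.1, the smallest it allows, and 0.25 when adjusted over the 5 shares and ratios tested. Being a share within a library, it does not depend on how libraries were scaled.

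The lambda variable segments, picked with their values known, have entries of their own in the table. Iglv1 stood at 20.7, 28.8 and 27.5 CPM in the GRwt tumors and at 35.8, 104 and 43.96 CPM in the GRdim tumors. Iglv2 stood at 0.595, 1.22 and 2.46 CPM against 6.59, 11.0 and 2.42 CPM. The order of the GRdim libraries was that of Iglc1 for Iglv1 and that of Iglc2 for Iglv2.

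**Figure D2:**
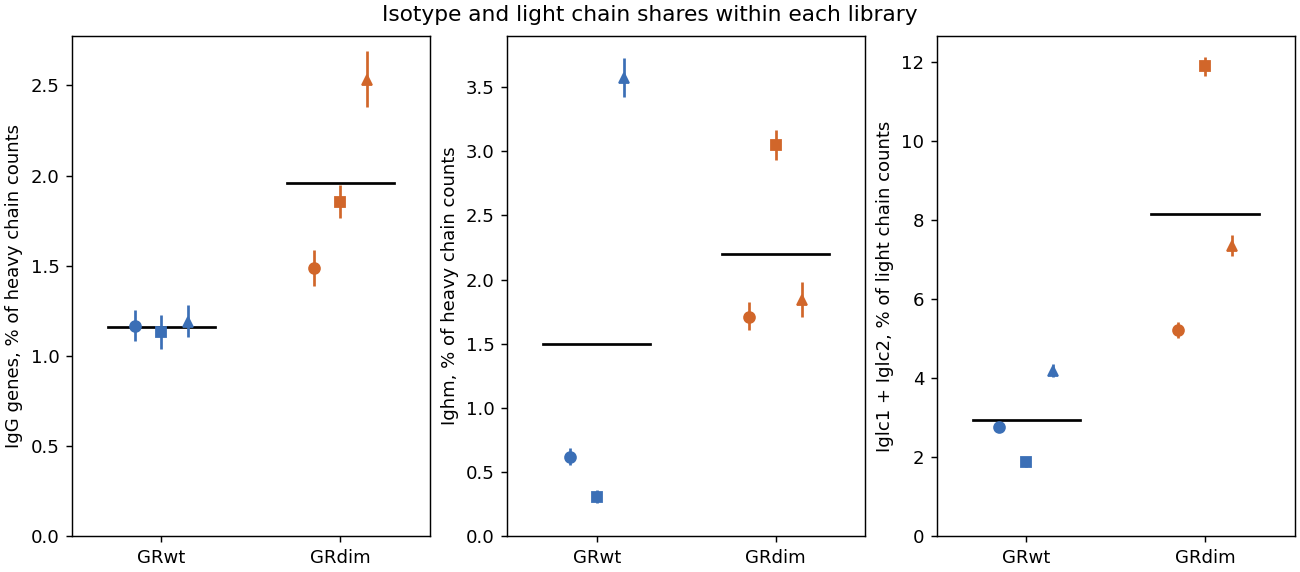
Share of heavy chain counts held by the 4 IgG genes (left) and by Ighm (middle), and share of light chain counts held by Iglc1 and Iglc2 (right), in percent, with 1 point per library, exact 95% intervals for counting error as vertical bars and the group mean as a horizontal line. Circles, squares and triangles are replicates 1, 2 and 3. The IgG and lambda shares of the GRdim libraries lie above all GRwt libraries, and the Ighm shares overlap.

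The IgG subclasses were rare transcripts beside IgA, and 3 of the 4 stood higher in GRdim tumors on average. Ighg2b (chromosome 12, 113266585 to 113271553, minus strand) stood at 8.18, 6.61 and 7.63 CPM in the GRwt tumors and at 10.1, 10.9 and 15.4 CPM in the GRdim tumors. The groups did not overlap, and the means were 7.47 ± 0.797 and 12.1 ± 2.88 CPM. The log2 fold change was 0.70 with a standard error of 0.26 (edgeR unadjusted p = 0.0245). Ighg2b and Iglc1 were the 2 of 10 members whose groups did not overlap, where 6.55% of all genes tested had such groups and 2.98% had them with GRdim higher.

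Ighg1 (chromosome 12, 113288860 to 113294143, minus strand) stood at 10.4, 18.7 and 8.24 CPM in the GRwt tumors and at 17.9, 28.1 and 18.6 CPM in the GRdim tumors. GRwt replicate 2 lay among the GRdim libraries. In the fit Ighg1 had a log2 fold change of 0.80 with a standard error of 0.34 (edgeR unadjusted p = 0.0442). Without GRwt replicate 2 it was 1.21 (edgeR unadjusted p = 0.00571). It was 0.55 without GRdim replicate 2, 0.56 without GRwt replicate 3 and 0.68 without GRwt replicate 1, with unadjusted edgeR p-values of 0.171, 0.132 and 0.128.

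Ighg3 stood at 1.46, 1.98 and 2.21 CPM in the GRwt tumors and at 1.91, 5.47 and 2.28 CPM in the GRdim tumors. Only GRdim replicate 2, with 193 counts, stood apart from the others, which held 39 to 80 counts. Its fitted log2 fold change was 0.78 with a standard error of 0.47, and 0.15 without that library. Ighg2c, a further IgG2 subclass, held 17 to 42 counts per library and stood at 1.16 ± 0.266 against 0.988 ± 0.362 CPM, with a log2 fold change of -0.22 and a standard error of 0.46.

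Summed over Ighg1, Ighg2b, Ighg2c and Ighg3, IgG held 1.17%, 1.13% and 1.19% of the heavy chain counts in the GRwt tumors and 1.48%, 1.85% and 2.53% in the GRdim tumors. The GRwt shares lay within each other's exact 95% intervals, whereas the GRdim shares were spread more widely and all lay above them. The means were 1.16 ± 0.0301% and 1.96 ± 0.531%, a difference of 0.795 percentage points, or 0.508 without GRdim replicate 3 (exact two-sided permutation p = 0.1, 0.25 when adjusted over the 5 shares and ratios). Within IgG, Ighg1 held 52.5 ± 11.4% of the counts in GRwt and 56.5 ± 5.79% in GRdim, and Ighg2b 33.96 ± 9.45% and 32.7 ± 8.95%. Ighg2c held 5.09 ± 0.887% and 2.73 ± 1.395%, with GRdim replicate 1 (4.32%) within the GRwt range of 4.27% to 6.03%.

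IgM transcripts differed between libraries more than between genotypes. Ighm, the constant region of the IgM heavy chain (chromosome 12, 113382178 to 113386350, minus strand), stood at 11.0, 7.78 and 57.8 CPM in the GRwt tumors and at 35.98, 74.6 and 26.8 CPM in the GRdim tumors. GRwt replicate 3 exceeded GRdim replicates 1 and 3, and the highest level was 9.59 times the lowest. Over all libraries the log2 fold change of Ighm was 0.84 with a standard error of 0.72 (edgeR unadjusted p = 0.274). It was 2.26 when GRwt replicate 3 was left out, 0.48 when GRwt replicate 1 was, 0.42 when GRwt replicate 2 was and 0.29 when GRdim replicate 2 was.

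The log2 fold change of Ighm was 0.98 without GRdim replicate 1. With the T as a covariate it was 1.44 with a standard error of 0.76. The values were also read without and within the T-named libraries. Among the 4 other libraries the log2 fold change of Ighm was 2.42 with a standard error of 0.50, whereas GRdim replicate 1 lay 0.68 below GRwt replicate 3 on the log2 scale. Ighg3 also differed in sign between these settings, at 1.18 among the 4 libraries and -0.21 between the 2 T-named libraries. Iglc1, Iglc2, Ighg1 and Ighg2b were higher in GRdim in both, with 1.86, 1.45, 0.69 and 0.82 among the 4 libraries and 0.53, 0.84, 1.12 and 0.41 between the 2, the latter without replicates. Igha, Igkc, Jchain and Ighg2c were lower among the 4 (-0.20, -0.47, -0.14 and -0.50) and higher between the 2 (0.40, 0.29, 0.36 and 0.22).

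Ighd, the gene of the IgD heavy chain, which naive B cells carry beside IgM, followed Ighm over the libraries. It stood at 1.99, 3.87 and 32.9 CPM in the GRwt tumors and at 20.6, 36.9 and 9.44 CPM in the GRdim tumors. GRdim replicate 2 and GRwt replicate 3 were the highest libraries for both genes. Ighe, the IgE heavy chain gene, held 1, 0 and 5 counts in the GRwt tumors and 11, 12 and 4 counts in the GRdim tumors, and did not pass the filter on low counts. In CPM all GRdim libraries lay above all GRwt libraries, the nearest being GRwt replicate 3 at 0.138 and GRdim replicate 3 at 0.147 CPM, which rest on 5 and 4 counts.

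As shares of heavy chain counts, Igha held 98.2%, 98.6% and 95.2% in the GRwt tumors and 96.8%, 95.1% and 95.6% in the GRdim tumors. Ighm held 0.617%, 0.306% and 3.57% against 1.71%, 3.05% and 1.84%. GRwt replicate 3 had the lowest Igha share of its genotype and the highest Ighm share of all libraries, so the groups overlapped in both measures. The differences were -1.50 percentage points for Igha (exact two-sided permutation p = 0.3, adjusted 0.5) and 0.702 for Ighm (exact two-sided permutation p = 0.6, adjusted 0.75). Heavy and light chain counts, here and above, were those of the members, without Ighd, Ighe and Iglc3. With Ighd and Ighe added, the differences were -1.78 percentage points for Igha, 0.701 for Ighm and 0.784 for IgG. With Iglc3 added, the difference in lambda share was 5.53 percentage points. All 10 members together held 0.398%, 0.512% and 0.351% of the library totals in the GRwt tumors and 0.442%, 0.511% and 0.336% in the GRdim tumors.

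The shares and ratios above were of counts not corrected for length. With counts per exonic length of GENCODE M21, the differences in share were 5.76 percentage points for lambda, 0.790 for IgG, 0.987 for Ighm and -1.78 for Igha. Levels of single members were compared per kilobase of exon, with the same lengths. On this scale the mean level over 6 libraries was highest for Igkc, at 3269 ± 698 CPM per kb, followed by Igha at 722 ± 165. Iglc1 and Jchain came next, at 175 ± 128 and 173 ± 34.7 CPM per kb, and did not differ beyond their spread. Iglc2 (31.9 ± 20.7) and Ighm (18.9 ± 13.96) overlapped as well, and Ighg1 (6.54 ± 2.73), Ighg2b (3.66 ± 1.18), Ighg3 (1.02 ± 0.581) and Ighg2c (0.810 ± 0.225) were the lowest. With the length of the shorter annotated transcript, 1100 bases in place of 2668 for Igha and 1393 in place of 2517 for Jchain, Igha stood at 1752 ± 400 and Jchain, at 313 ± 62.7 CPM per kb, came before Iglc1.

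**Figure D3:**
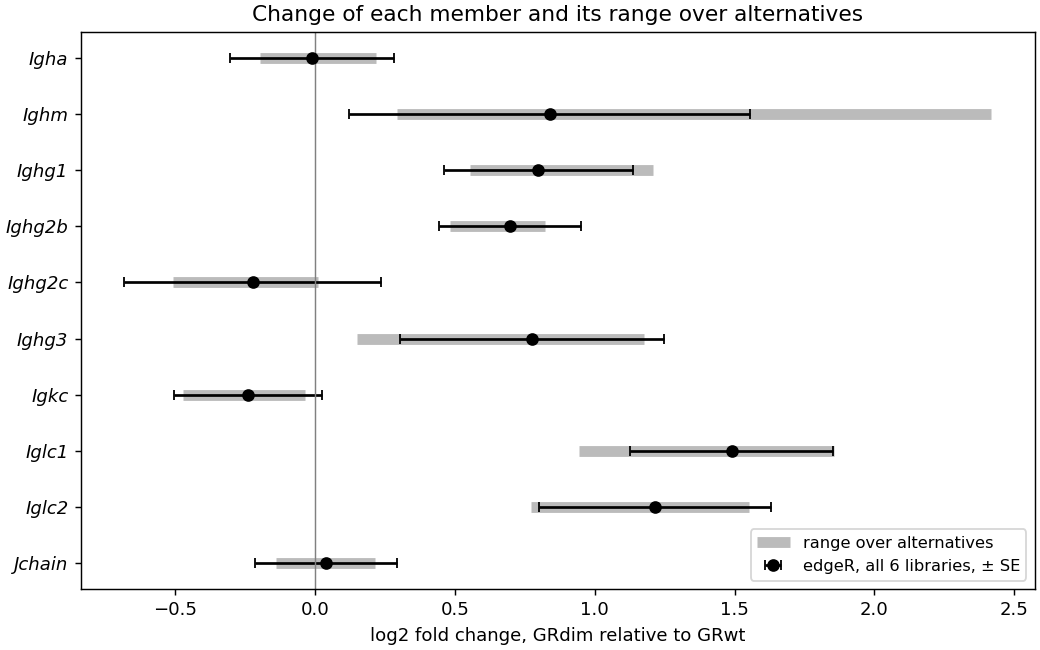
Log2 fold change of each member, GRdim relative to GRwt, from edgeR over all 6 libraries with its standard error (black), and the range over 15 alternative fits (grey bar). The grey bars of Iglc1, Iglc2, Ighg1, Ighg2b, Ighg3 and Ighm stay above 0, that of Igkc stays below, and those of Igha, Jchain and Ighg2c cross it.

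Other genes of antibody production were read from lists, with values from the same fit. Counts of higher and lower genes stand beside 50.6% of all genes tested with log2 fold changes above 0. Of 15 plasma cell genes 9 were higher and 6 lower in GRdim, with a median log2 fold change of 0.08 beside 0.0040 over all genes tested, and 0 passed. At an unadjusted p under 0.05, 2 were lower and 0 higher, where 1.09% and 1.79% of all genes tested were. These were Fkbp11 and Creld2, proteins of the endoplasmic reticulum that epithelial cells also express. They stood at 23.2 ± 7.36 and 101 ± 21.8 CPM in GRwt and at 11.8 ± 3.73 and 67.4 ± 12.1 CPM in GRdim. Tnfrsf17, the plasma cell survival receptor BCMA, stood at 0.568 ± 0.132 against 1.11 ± 0.254 CPM, and Xbp1, a transcription factor of secretory cells, at 313 ± 49.4 against 247 ± 21.9 CPM.

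All 11 genes of immunoglobulin folding and assembly, which are shared by every secretory cell type, had log2 fold changes below 0, with a median of -0.45. Of all genes tested, 50.6% were above 0. Sel1l and Herpud1 lay near 0, at -0.038 and -0.0096. With edgeR 0 of the 11 passed, and 6 had an unadjusted p under 0.05, where 1.09% of all genes were lower at that level. Hspa5, the heavy chain binding chaperone BiP, stood at 1082 ± 111 against 688 ± 75.1 CPM, and the disulfide isomerases Pdia6 and Pdia4 at 427 ± 37.8 and 320 ± 54.8 against 277 ± 37.2 and 215 ± 1.20 CPM. Sdf2l1, an Hspa5 partner, stood at 72.3 ± 22.3 against 45.1 ± 5.65 CPM.

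Among 11 transport and receptor genes 8 were higher and 3 lower, with 0 at an unadjusted p under 0.05 and a median of 0.24. Pigr, the polymeric immunoglobulin receptor, lay outside the naming rule and was picked with its values known. It stood at 1877, 3368 and 3177 CPM in the GRwt tumors and at 3233, 1927 and 1215 CPM in the GRdim tumors. Its groups overlapped widely, and its log2 fold change was -0.40 with a standard error of 0.39. Fcmr, the IgM receptor of B cells, stood at 4.49 ± 6.26 against 11.1 ± 9.78 CPM, Fcgrt, the neonatal IgG receptor chain, at 38.3 ± 8.24 against 50.1 ± 13.5 CPM, Fcgr2b, the inhibitory IgG receptor, at 21.4 ± 6.69 against 26.2 ± 5.14 CPM, and Trim21, the cytosolic antibody receptor, at 15.3 ± 2.10 against 18.9 ± 1.79 CPM.

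The list of class switching and plasma cell recruitment genes had 16 of 18 members in the table and 13 tested, 7 higher and 6 lower, with 0 at an unadjusted p under 0.05 and a median of 0.07. Tnfsf13b and Tnfsf13, the B cell survival factors BAFF and APRIL, stood at 9.90 ± 2.13 and 7.18 ± 2.12 CPM in GRwt and at 13.2 ± 4.21 and 5.68 ± 0.917 CPM in GRdim. Ung, the uracil glycosylase used in switching, stood at 17.2 ± 3.01 against 13.95 ± 0.721 CPM, and Ccl25, a gut homing chemokine, at 10.7 ± 2.35 against 8.08 ± 2.65 CPM.

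Several B cell markers varied over the libraries as Ighm did. Of 15 tested, 14 were higher and 1 lower in GRdim, where 50.6% of all genes tested were higher. Their median was 0.71, and 0 had an unadjusted p under 0.05. Their summed level was 166, 198 and 329 CPM in the GRwt tumors and 250, 395 and 211 CPM in the GRdim tumors, with 0 markers at 0 in all libraries. A large part of that sum was Blnk, an adaptor of B cell receptor signalling, which did not vary as Ighm did. It stood at 134, 171 and 107 CPM in the GRwt tumors and at 109, 143 and 140.4 CPM in the GRdim tumors. When single libraries were left out the median log2 fold change of the list ran from 0.14 (GRdim replicate 2 absent) to 2.44 (GRwt replicate 3 absent), with 0.32 and 0.34 when GRwt replicate 1 or 2 was absent. In the 4 libraries lacking the T it was 2.50. Cd79a, part of the B cell receptor, stood at 11.2 ± 10.4 against 19.9 ± 12.98 CPM, and Blk, a B cell kinase, at 2.65 ± 3.18 against 5.28 ± 3.06 CPM. Ebf1, a transcription factor of the B lineage, stood at 3.79 ± 3.14 against 7.75 ± 4.57 CPM, and Fcrla, an Fc receptor-like protein of B cells, at 2.73 ± 2.19 against 4.65 ± 2.86 CPM. The part of B cell content in the levels of Ighm and Ighd was not tested.

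Follicle genes had 7 of 9 tested members higher and 2 lower, with a median of 0.61 and 0 at an unadjusted p under 0.05. Gcsam, a germinal center gene, stood higher in GRdim without overlap, at 0.560 ± 0.162 against 1.04 ± 0.234 CPM. Ltb, a lymphotoxin subunit, stood at 9.49 ± 3.02 against 15.6 ± 10.5 CPM. Lta, its partner, stood at 0.9498 ± 0.737 against 1.64 ± 0.557 CPM, and Mef2b, a germinal center transcription factor, at 0.196 ± 0.173 against 0.452 ± 0.327 CPM. The median of this list was 0.018 without GRdim replicate 2, 0.27 without GRwt replicate 2 and 1.12 without GRwt replicate 3. Of 6 tested genes of lymphoid stroma, 3 were higher and 3 lower. Ccl21a, a chemokine of lymphatic vessels and lymph nodes, stood higher in GRdim without overlap, at 11.8 ± 1.28 against 26.4 ± 8.33 CPM (log2 fold change 1.16 with a standard error of 0.26, edgeR unadjusted p = 0.00158). Cxcl13, the chemokine of B cell follicles, stood at 11.4 ± 6.83 against 16.5 ± 7.86 CPM. Pdpn, the podoplanin of lymphatic and stromal cells, stood lower in GRdim without overlap, at 31.5 ± 2.34 against 22.4 ± 6.90 CPM (log2 fold change -0.49, edgeR unadjusted p = 0.0813). Of all genes tested, 2.98% were higher and 3.57% lower in GRdim without overlap. Madcam1, the addressin of mucosal vessels, stood at 5.92 ± 1.88 against 5.40 ± 0.984 CPM. Of 8 T cell markers 7 had log2 fold changes above 0, where 50.6% of all genes tested did. The list median was 0.43, and 3 were higher and 0 lower without overlap. Summed, the 8 T cell markers stood at 18.5 to 21.9 CPM in GRwt and 23.8 to 30.1 CPM in GRdim.

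Among markers of surrounding tissue 0 genes passed in edgeR, and the groups overlapped for every smooth muscle, adipocyte and macrophage marker. All 8 smooth muscle markers had log2 fold changes above 0, where 50.6% of all genes tested did, with a median of 1.23 (0.47 without GRdim replicate 3). At an unadjusted p under 0.05, 7 were higher, where 1.79% of all genes tested were. Summed, they stood at 1404, 1224 and 1415 CPM in the GRwt tumors and at 2572, 1172 and 6298 CPM in the GRdim tumors. The 7 tested adipocyte markers had a median of 1.36 (4.64 without GRwt replicate 1, 2.40 without GRdim replicate 2), and the 8 macrophage markers one of -0.02. All 8 epithelial markers had log2 fold changes below 0, with a median of -0.17 and 0 at an unadjusted p under 0.05. GRdim replicate 3, the highest in smooth muscle, was the lowest library for Igha, Igkc and Jchain and the highest for Ighg2b. GRdim replicate 2, the lowest in smooth muscle, was the highest library for Iglc1, Iglc2, Ighg1, Ighg3 and Ighm. The part of these tissues in the member levels was not tested.

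**Figure D4:**
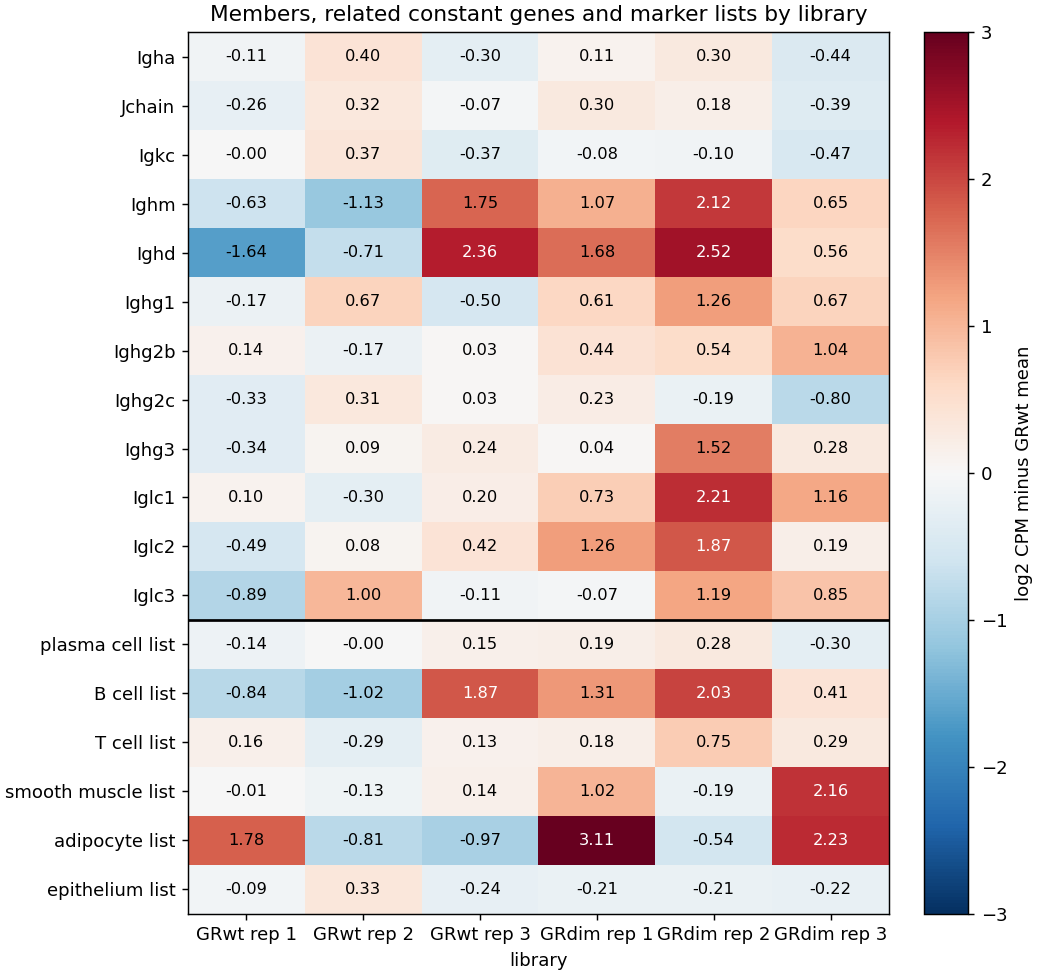
Log2 CPM minus the GRwt mean in each library for the members, for Ighd and Iglc3, and below the line for the mean of each marker list. The rows of Ighm, Ighd and the B cell list share high values in GRwt replicate 3 and GRdim replicates 1 and 2, Igha, Jchain and Igkc stay within 0.47 of the GRwt mean, and Iglc1 peaks in GRdim replicate 2 at 2.21.

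The members fell into different patterns over the 6 libraries. Likeness was measured as the root mean square difference in log2 CPM after centring each gene on its mean, with 0 for identical patterns. By this measure Igha lay 0.15 from Jchain and 0.16 from Igkc, but 1.28 from Ighm, 0.87 from Iglc1 and 0.72 from Iglc2. Among 15520 genes with a mean of at least 1 CPM outside the members and antigen receptor segments, those nearest to Igha were 4930539J05Rik (0.056), Tuft1 (0.095), Gm6277 (0.099) and Prdm16 (0.099). Those nearest to Ighm were Cd79b (0.11), the partner of Cd79a in the B cell receptor, Blk (0.16), Fcrl1 (0.22), a B cell surface receptor, and Chst3 (0.23), a sulfotransferase. Cd79b stood at 2.65, 1.58 and 15.1 CPM in the GRwt tumors and at 9.13, 18.5 and 7.05 CPM in the GRdim tumors, the order of Ighm library by library. Those nearest to Ighg1 were 7530428D23Rik (0.14), Gm11830 (0.23), Nags (0.26) and Pdk2 (0.27). Of the members, Ighg3, Igha, Jchain and Ighg2b lay 0.48, 0.49, 0.53 and 0.54 from Ighg1, and Ighg2c 0.71. Ighg2c itself lay 0.19 from Jchain and 0.28 from Igha.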

How the data were processed

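The table deposited by the authors holds unnormalized read counts for each gene in 6 libraries of colonic tumors. Per the submitters' processing notes, the tools were bcl2fastq 2.20.0.422, Trim Galore, FastQC, MultiQC, STAR 2.7.8a, featureCounts of Subread 1.5.0 and DESeq2 1.40.2, with build GRCm39. The annotation release, read length, strand and multiple-match settings are not given in the sources used here. Gene positions come from the deposited table, whose library columns were matched to samples by library name. The test was the quasi-likelihood test of edgeR 4.0.16 in R 4.3.3 on counts, with TMM scaling, the default filter by group and robust dispersions, and p-values were adjusted over all genes tested. The procedure was tested on simulated data with the same dispersion for every gene and no differences in tissue content. That run was not a test of the comparisons reported here. Log2 CPM used a prior count of 2. The standard error is the log2 fold change divided by the square root of F. Shares and ratios were compared by exact permutation of samples, with exact 95% binomial intervals for counting error. Lengths and sequences came from GENCODE M21 (GRCm38), matched by gene ID; none of its coordinates were joined to the table's.

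The members and gene lists were chosen with earlier results of these data known. The naming rule took all members, up to 4 genes of smallest p in each list, and the 4 genes nearest in pattern to Igha, Ighm and Ighg1. For markers of T cells, epithelium, smooth muscle, adipocytes and macrophages only list values are printed. Alternatives were DESeq2 1.42.0, limma-voom (limma 3.58.1) with sample weights, RLE factors, no filter, the T in library names as a covariate, the replicate number as a block, GRdim replicates 1 and 3 summed, antigen receptor genes left out of the scaling, and each library left out. For the shares, an alternative added Ighd and Ighe to the heavy chain counts and Iglc3 to the lambda counts. Added after seeing the data were fits of the 4 libraries lacking the T, counts per exonic length, transcript lengths and list medians without each library.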

Additional observations from a re-analysis of the deposited data

How the results depend on the processing

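The count of members past the adjusted threshold was 0 in edgeR and in every alternative fit except DESeq2, where it was 1 (Iglc1, adjusted p = 0.0473), and the count over all genes was 31 with DESeq2 and 0 in the others. Leaving out each library in turn gave 0 to 0 for both counts. Over 15 alternative fits the log2 fold change was above 0 throughout for 6 members (Iglc1, Iglc2, Ighg1, Ighg2b, Ighg3 and Ighm) and below 0 throughout for 1, Igkc. Igha was at 0.0032 with the T as a covariate, 0.053 with GRdim replicates 1 and 3 summed, and between -0.18 and 0.22 with a library left out. Jchain was at -0.059 with limma-voom, -0.14 among the 4 libraries with no T, and between -0.10 and 0.22 with a library left out. Ighg2c ran from -0.51 to 0.012 with a library left out. The log2 ratio of Jchain to Igha plus Ighm changed by 0.03 between genotypes, by -0.0050 with GRdim replicates 1 and 3 summed, and by -0.046 to 0.13 with a library left out. The cause of these changes was not tested. The lambda share differed by 3.34 to 6.68 percentage points, the IgG share by 0.508 to 1.03, the Ighm share by 0.106 to 1.74 and the Igha share by -2.55 to -0.885 with a library left out. Among the 4 libraries with no T these 4 differences were 7.30, 1.04, 1.98 and -3.03. Deviations from the genotype mean in samples of the same replicate number had correlations of -0.39, 0.03 and -0.43 for numbers 1, 2 and 3. They were 0.45 for GRwt replicate 3 with GRdim replicate 1 and 0.40 for GRwt replicate 1 with GRdim replicate 3. With 3 libraries centred on each genotype mean, these values depend on each other. They cannot tell whether samples share a donor or a batch. With the replicate number as a block 0 genes and 0 members passed, 3 members against 4 had an unadjusted p under 0.05 (2 to 4 with a library left out), and the exact block permutation p of the lambda and IgG shares was 0.25, its smallest. Ighg2c (17 to 42 counts per library) and Ighe (0 to 12) rest on few reads.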
